A study of Mus musculus with 14 samples.

Results

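DNA repair and damage checkpoint genes were followed in mouse embryo fibroblasts of strain 129/Sv with libraries of poly(A) RNA sequenced from the 3' end. The set holds 53 genes, chosen as a list of symbols from the repair and checkpoint pathways and not by a measured value, and all 53 were among the 20207 genes listed. Treated p53-null (p53-/-) cells (2 libraries) received doxorubicin, a topoisomerase II poison that breaks DNA, at 0.2 µg/ml for 6 h, and untreated p53-null cells (2 libraries) did not. Treated wild-type cells (3 libraries) received the same dose for the same time, beside untreated wild-type cells (3 libraries). All groups came from 1 strain and 1 cell type, and the labels number the replicates without saying which cultures or embryos they came from, so the p-values reflect spread among libraries that may be technical. Levels are in CPM, reads of a gene scaled to a common library size, and changes are log2 folds of CPM plus 0.5 with their standard error (SE), a scale that understates the change of genes near 0. A gene was called where its adjusted p was under 0.05 in limma-trend, a linear model fitted over all genes, with Benjamini-Hochberg adjustment over all genes tested.

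Cells mend each kind of DNA lesion by a different route. Nucleotide excision repair cuts out bulky adducts, mismatch repair corrects copying errors, and base excision repair removes single damaged bases and seals single-strand breaks. Double-strand breaks, such as those left by doxorubicin, are joined by homologous recombination or by end joining, while the Fanconi pathway unhooks crosslinks and bypass polymerases copy across damage that remains. The kinases ATM, ATR, CHEK1 and CHEK2 signal breaks to p53, a transcription factor that in turn raises genes of cell-cycle arrest, death and repair.

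A level minimum of 1 CPM before scaling, in at least 2 libraries, left 47 of the 53 genes for testing, among 11177 genes in all. Of the 47, 20 were called in at least 1 of 5 comparisons and 27 in none. The same share over all genes was not computed, so these counts do not set repair genes apart from other genes. Ddb2, Xrcc4, Prkdc, Atr, Chek1 and Rrm2b were too low to test and are given as reads. Brca2, Fanci, Msh3, Rad51c and Xrcc2 reached the minimum in 2 libraries through p53-null cells alone, with 0 or 1 wild-type library at 1 CPM before scaling. The filter thus favoured a higher level in p53-null cells, and the genotype values of these genes are description only. Before scaling, wild-type values lay below the CPM printed here. Total reads ran over 18099506 to 25970157 in p53-null and 9768160 to 11770448 in wild-type libraries, so depth went with genotype and the effect of genotype cannot be told apart from it. Trp53 itself, which encodes p53, had 29.5 and 44.1 CPM in treated and 69.6 and 74.2 CPM in untreated p53-null libraries, against 29.4, 23.9 and 43.4 CPM in treated and 24.3, 25.2 and 20.1 CPM in untreated wild-type ones. The deleted stretch of Trp53 is not given in the labels, so these 3' reads are no test of the genotype. Cdkn1a, the p53 target that encodes the cell-cycle inhibitor p21, had 53.9 and 44.4 CPM in treated and 31.5 and 29.3 CPM in untreated p53-null libraries. Its level was 4443, 5096 and 4071 CPM in treated and 559, 754 and 745 CPM in untreated wild-type libraries. Of 4 Y-linked genes, treated p53-null library 2 held 15 reads and the other p53-null libraries 136 to 216. Xist, an RNA of the inactive X chromosome, had 399 reads in that library and 15 to 29 in the others. The libraries numbered 2 in p53-null cells thus differ in sex-linked reads. The wild-type libraries numbered 2 and 3 held 0 to 9 such Y-linked reads and those numbered 1 held 147 and 166, with 82 to 263 Xist reads over all of them. The part of sex in the genotype values was not tested. Without both p53-null libraries numbered 2, 1 library was left in each p53-null group. The calls given below were then lost for Fancc, Mutyh and Parp2 in the wild-type response and for Mutyh in the difference of responses. Between genotypes all were lost except that of Rad51c, in both states, a gene that passed the level minimum through p53-null libraries alone. The 12 fibroblast markers, all with reads, summed to 4906 to 6212 CPM in p53-null and 6794 to 10430 CPM in wild-type libraries. Those of endothelium (6 genes) summed to 2.46 to 4.34 CPM in p53-null and 0.112 to 1.49 CPM in wild-type libraries. Those of epithelium (6 genes) summed to 55.3 to 222 CPM over all libraries. Of these, Krt19 held 45.45 to 210.5 CPM and Krt18 6.17 to 36.1 CPM. Epcam, Cdh1, Krt8 and Cldn4 each reached at most 0.595 CPM. The part of these differences in the genotype values was not tested.

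In wild-type cells doxorubicin raised 3 repair genes and lowered 4, out of 47 tested, which is 7 calls beside 12.6% of all genes tested (8.02% higher and 4.56% lower). Ercc5, Msh6 and Polk rose. Ung, Fancc, Mutyh and Parp2 fell. They belong to different routes, with 1 riser each in nucleotide excision repair (11 tested), mismatch repair (4 tested) and lesion bypass and reversal (3 tested). Of the fallers, 3 stood among the 10 genes of base excision and single-strand break repair and 1 among the 4 Fanconi genes. None of the 10 homologous recombination genes, 3 end joining genes or 2 checkpoint kinases tested was called. The median log2 fold of the 47 was -0.13, beside 0.05 over all genes, and 29 of the 47 folds were below 0, beside 46.8% of all genes.

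**Figure D1:**
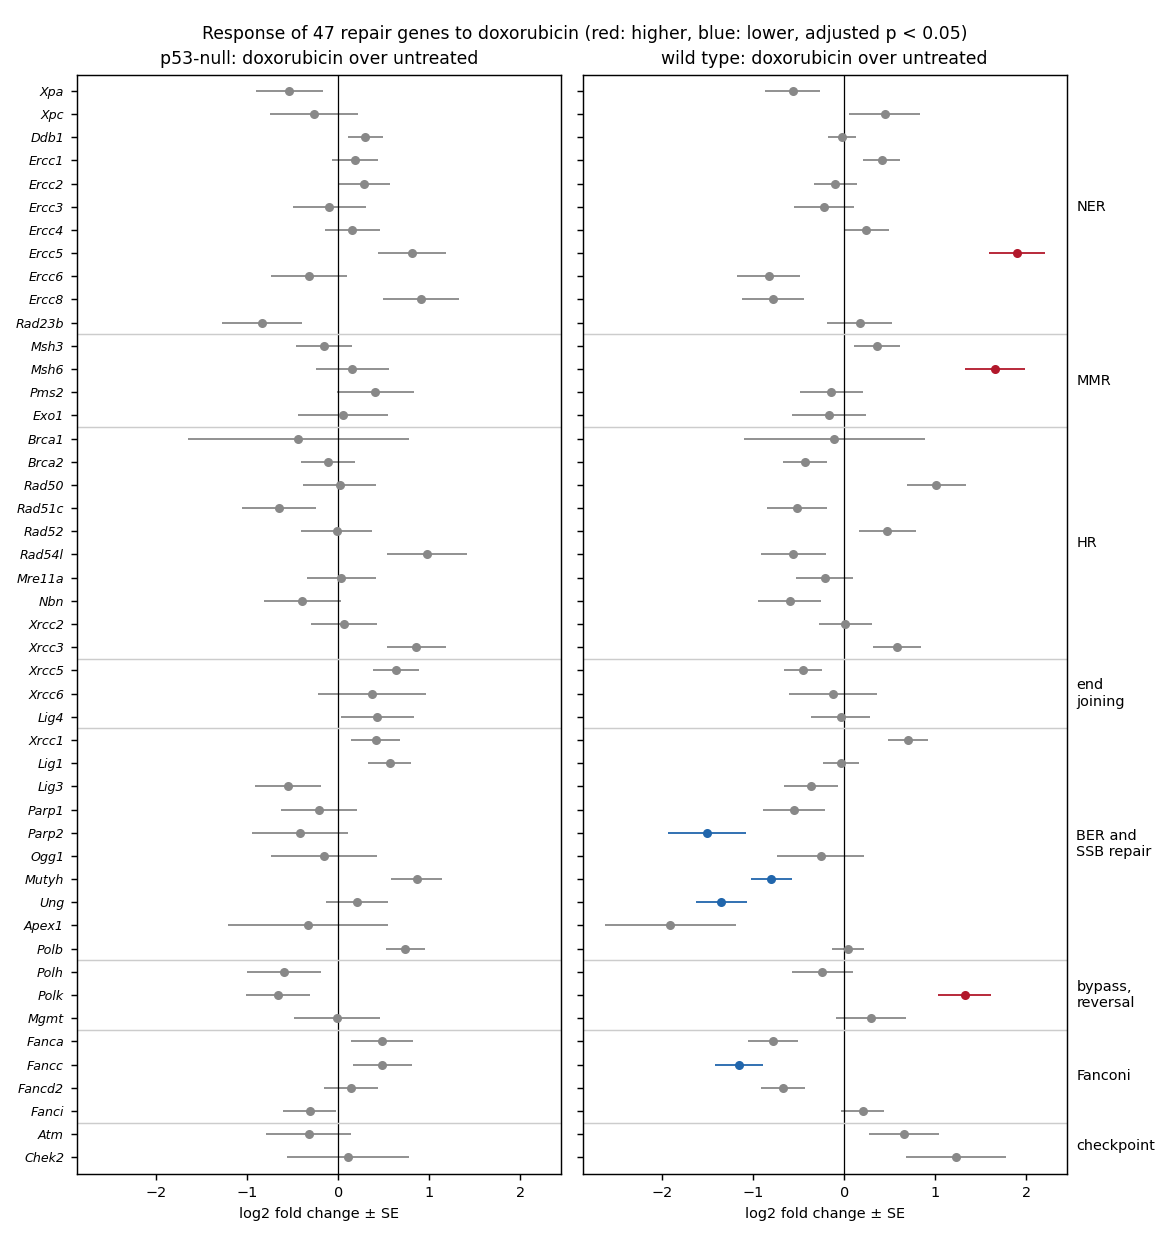
Log2 fold change with doxorubicin (x axis, point and SE bar) of the 47 tested repair genes (rows, grouped by pathway), p53-null cells left and wild-type cells right. Red and blue points are genes called higher and lower, 3 and 4 in wild type and 0 in p53-null cells.

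Ercc5 encodes XPG, the nuclease that makes the incision 3' of the lesion in nucleotide excision repair. It had 91.5, 41.6 and 68.1 CPM in the treated wild-type libraries 1, 2 and 3, against 17.0, 17.7 and 15.6 CPM in the untreated ones. Every treated library stood above every untreated one (log2 fold 1.90, SE 0.30, adjusted p = 0.00347). In p53-null cells Ercc5 had 13.1 and 13.5 CPM with doxorubicin and 5.71 and 9.53 CPM without, a log2 fold of 0.81 (SE 0.37, adjusted p = 0.449). Both treated p53-null libraries lay above their untreated ones without a call, at levels below all treated wild-type libraries.

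Msh6 encodes a mismatch repair protein that recognises base mismatches and small loops. Its level was 7.94, 8.09 and 9.36 CPM in treated and 2.50, 1.89 and 2.70 CPM in untreated wild-type libraries, a log2 fold of 1.66 (SE 0.33, adjusted p = 0.0098). These groups did not overlap, and within numbers 1, 2 and 3 the log2 ratios were 1.49, 1.85 and 1.63. The p53-null libraries held 2.20 and 5.66 CPM with doxorubicin and 3.12 and 3.21 CPM without, and the treated libraries lay on both sides of the untreated ones (log2 fold 0.15, SE 0.40, adjusted p = 0.911). Its 3' end overlaps that of Fbxo11 on the other strand, and the strand used in counting is not given in the sources used here. Fbxo11 had a log2 fold of 0.29 (SE 0.33, adjusted p = 0.613) in wild type.

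Polk encodes DNA polymerase kappa, which copies past bulky lesions. It had 167, 155 and 112 CPM in treated wild-type libraries, against 83.0, 48.9 and 45.3 CPM in untreated ones. Treated libraries all stood above untreated ones (log2 fold 1.32, SE 0.29, adjusted p = 0.0152). The order was the other way round in p53-null cells, with 100.1 and 59.0 CPM in treated and 123 and 122 CPM in untreated libraries, a log2 fold of -0.67 (SE 0.35, adjusted p = 0.501) that was not called.

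The promoters of these 3 genes and of Mutyh are shown because p53 acts through a site made of 2 half-sites of 10 bases. RefSeq promoter sequences (GRCm38.p6, 250 bases before to 50 after each start) were found for 42 of the 53 genes. The sequences are the 250 bases before the start, 5′ to 3′ on the gene's strand, for Ercc5 at chr1:44147494-44147743 (plus strand), Msh6 at chr17:87974800-87975049 (plus), Polk at chr13:96519188-96519437 (minus) and Mutyh at chr4:116807484-116807733 (plus). Capitals mark the p53 half-site in Polk, CCAAT in Ercc5 and its reverse complement in Msh6 and Mutyh, and the reverse complement of TTTGAA in Ercc5.
Ercc5: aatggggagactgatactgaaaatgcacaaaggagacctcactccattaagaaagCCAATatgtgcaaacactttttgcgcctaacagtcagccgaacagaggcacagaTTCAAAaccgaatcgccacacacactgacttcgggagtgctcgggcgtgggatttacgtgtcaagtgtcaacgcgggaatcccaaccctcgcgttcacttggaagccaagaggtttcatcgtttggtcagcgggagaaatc
Msh6: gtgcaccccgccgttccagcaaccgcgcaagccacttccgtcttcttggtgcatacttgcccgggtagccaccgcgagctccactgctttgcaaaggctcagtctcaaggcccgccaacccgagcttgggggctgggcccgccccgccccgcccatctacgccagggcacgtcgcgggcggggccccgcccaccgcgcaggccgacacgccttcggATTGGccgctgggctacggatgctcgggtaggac
Polk: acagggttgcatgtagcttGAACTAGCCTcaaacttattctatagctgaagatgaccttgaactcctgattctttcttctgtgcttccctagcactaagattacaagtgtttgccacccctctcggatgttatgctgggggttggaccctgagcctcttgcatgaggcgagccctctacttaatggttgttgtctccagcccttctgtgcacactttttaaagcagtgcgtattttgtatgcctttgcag
Mutyh: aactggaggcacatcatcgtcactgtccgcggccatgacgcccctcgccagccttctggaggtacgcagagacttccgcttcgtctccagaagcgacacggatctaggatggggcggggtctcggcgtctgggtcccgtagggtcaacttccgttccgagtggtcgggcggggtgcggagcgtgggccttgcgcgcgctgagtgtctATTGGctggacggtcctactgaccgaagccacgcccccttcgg

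A p53 half-site was matched on both strands in 2 of the 42 promoters, Polk and Fanca, which is 4.8% beside 9.6% of 27025 genes with a promoter sequence. In Polk it is GAACTAGCCT, 231 to 222 bases before the start shown, which is the more downstream of 2 annotated starts. The promoter sequence at the more upstream Polk start held no half-site. In Fanca it is AAGCATGCTC. A full site, 2 half-sites with 0 to 13 bases between them, was in 0 of the 42 and in 0.1% of all genes. Ddb2, Xpc and Rrm2b were among the genes without a promoter sequence and were not searched. Bases outside these short sequences were not searched either, so the matches do not show whether p53 binds at these genes. Other motifs were searched after the values were seen and carry no test. TTTCCCGC, a core of E2F sites, was in 5 of the 42 (11.9%, beside 1.2% of all genes), namely Msh6, Brca2, Rad51c, Xrcc6 and Chek2, in Msh6 within the bases after the start. CCAAT was in 22 (52.4%, beside 41.1%), TTTGGCGC in Msh3 alone (2.4%, beside 0.6%) and TTTGAA in Ercc5 alone (2.4%, beside 20.2%).

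Ung encodes uracil-DNA glycosylase, which opens base excision repair at uracil. It had 2.43, 2.05 and 2.06 CPM in treated and 4.76, 7.46 and 7.08 CPM in untreated wild-type libraries, a log2 fold of -1.35 (SE 0.28, adjusted p = 0.0125). Every treated library lay below every untreated one. The p53-null libraries had 6.82 and 4.34 CPM with doxorubicin and 4.46 and 4.88 CPM without (log2 fold 0.20, SE 0.34, adjusted p = 0.854), and these overlapped.

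Mutyh encodes the glycosylase that removes adenine paired with oxidised guanine. Its wild-type levels were 4.67, 4.65 and 5.56 CPM with doxorubicin and 8.21, 9.43 and 9.44 CPM without, a log2 fold of -0.81 (SE 0.23, adjusted p = 0.0439). Its p53-null levels were 8.95 and 9.47 CPM with doxorubicin and 4.70 and 5.01 CPM without, a log2 fold of 0.86 (SE 0.28, adjusted p = 0.362). Treated libraries lay below the untreated ones in wild type and above them in p53-null cells, and the treated range of each genotype overlapped the untreated range of the other.

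Parp2, which encodes a poly(ADP-ribose) polymerase activated by DNA breaks, had 3.74, 1.12 and 2.16 CPM in treated and 9.76, 8.53 and 4.04 CPM in untreated wild-type libraries (log2 fold -1.51, SE 0.43, adjusted p = 0.0459). Treated library 1 and untreated library 3 lay close together, and the groups did not overlap. It had 9.32 and 14.2 CPM in treated and 12.6 and 19.1 CPM in untreated p53-null libraries, which overlapped (log2 fold -0.42, SE 0.53, adjusted p = 0.794).

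Fancc encodes a subunit of the Fanconi core ubiquitin ligase. It had 5.51, 5.30 and 8.54 CPM in treated and 12.6, 14.8 and 17.0 CPM in untreated wild-type libraries, with no overlap, and a log2 fold of -1.16 (SE 0.27, adjusted p = 0.0188). In p53-null cells it had 8.53 and 6.89 CPM with doxorubicin and 5.09 and 5.62 CPM without, and the treated libraries were the higher ones (log2 fold 0.48, SE 0.32, adjusted p = 0.6). The 3' end of Fancc lies within Aopep on the other strand, listed under its older symbol 2010111I01Rik, whose own wild-type log2 fold was 0.06 (SE 0.33, adjusted p = 0.927).

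**Figure D2:**
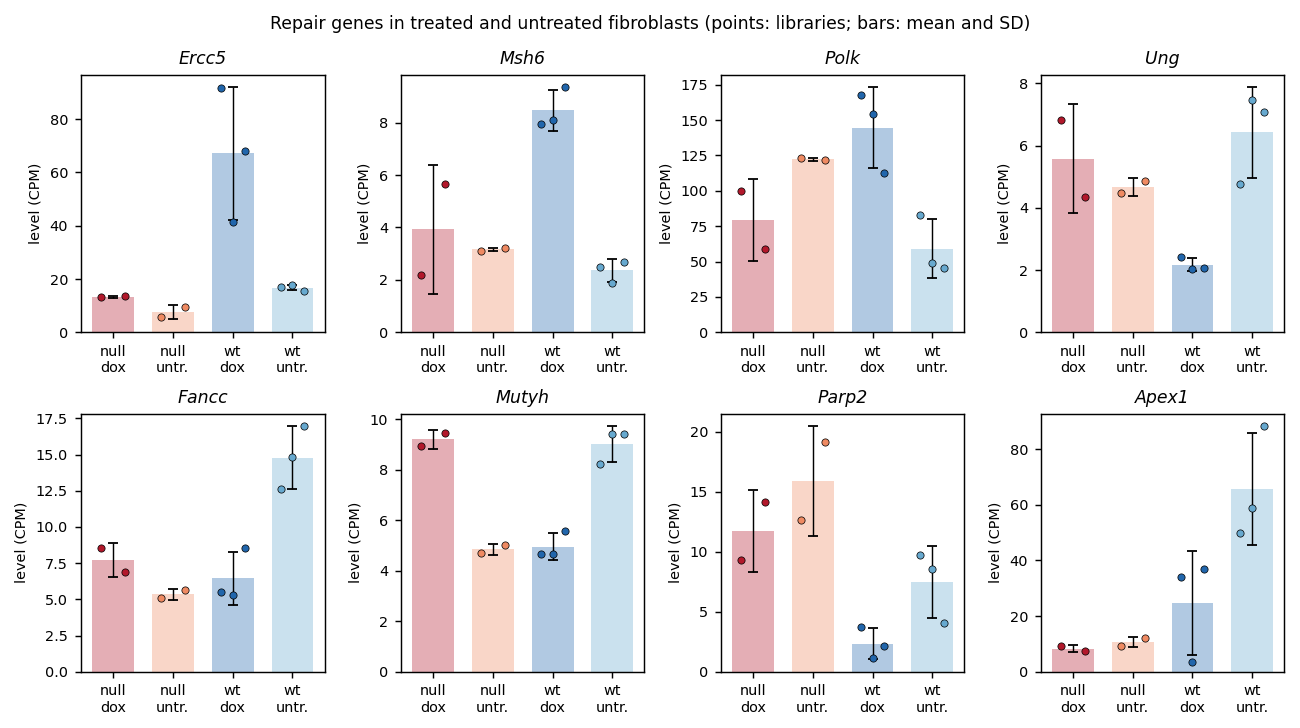
Level in CPM (y axis) of 8 repair genes in treated p53-null, untreated p53-null, treated wild-type and untreated wild-type cells (x axis). Points are libraries, bars are means and error bars are SD. Ercc5, Msh6 and Polk stand higher in treated than in untreated wild-type libraries, and Ung, Fancc, Mutyh, Parp2 and Apex1 lower, with Apex1 at 3.35 CPM in treated wild-type library 2.

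These calls differed in how firmly they stood. Ercc5 was called under all 23 alternative settings, at adjusted p from 0.00166 to 0.0327. Msh6 was called under 22, the exception being the fit without both wild-type libraries numbered 3 (adjusted p = 0.05). Polk lost its call without treated wild-type library 1 (adjusted p = 0.0526), untreated library 2 (0.0661) or untreated library 3 (0.0666). Ung lost it without untreated wild-type library 2 (adjusted p = 0.0561) or 3 (0.0539). Fancc lost it without treated wild-type library 1 (adjusted p = 0.0629) or untreated library 2 (0.0661) or 3 (0.0842). Mutyh was called under 8 and Parp2 under 6 of the 23, with adjusted p up to 0.146 and 0.15. Without untreated wild-type library 2 or 3 the count of 7 became 2 or 3.

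The replicate number was taken to pair the wild-type libraries. With the number as a block 13 of the 47 genes were called, 5 higher and 8 lower, beside 23.3% of all genes (13.6% higher and 9.64% lower). All 7 above were among them. Rad50, which encodes the zinc-hook subunit of the break sensor MRE11-RAD50-NBN, gained a call with a blocked fold of 1.01 (SE 0.25, adjusted p = 0.0243). Its levels were 5.42, 10.4 and 10.6 CPM in treated and 3.45, 5.39 and 3.26 CPM in untreated wild-type libraries. Xrcc1, the scaffold of single-strand break repair, gained one as well (blocked log2 fold 0.70, SE 0.16, adjusted p = 0.0162). Xrcc1 had 259.7, 204 and 219 CPM in treated and 178, 119.6 and 127 CPM in untreated libraries. Both lay higher in every treated library.

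The other gains were falls. Apex1 encodes the nuclease that cuts at abasic sites, and had 34.0, 3.35 and 36.8 CPM in treated and 49.8, 59.0 and 88.3 CPM in untreated wild-type libraries, where treated library 2 stood far below the rest. Its blocked log2 fold was -1.92 (SE 0.55, adjusted p = 0.0389). Nbn, which encodes the subunit that recruits ATM to breaks, had 8.69, 6.79 and 4.53 CPM in treated and 14.5, 10.3 and 6.74 CPM in untreated wild-type libraries, overlapping groups that were ordered alike within each number (blocked log2 fold -0.60, SE 0.18, adjusted p = 0.0488). Fanca, encoding another subunit of the Fanconi core, had 4.86, 3.81 and 3.09 CPM in treated and 7.50, 6.74 and 6.85 CPM in untreated wild-type libraries (blocked log2 fold -0.79, SE 0.21, adjusted p = 0.0333). Ercc6, which encodes the factor CSB that starts repair at stalled RNA polymerase, had 1.96, 0.930 and 1.44 CPM in treated and 4.29, 2.69 and 2.02 CPM in untreated wild-type libraries (blocked log2 fold -0.83, SE 0.26, adjusted p = 0.0484). Fanca and Ercc6 were lower in every treated library.

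Across all 47 genes, treated and untreated wild-type groups did not overlap for 18. Of these, 7 were higher with doxorubicin, beside 17% of all genes, and 11 were lower, beside 12%. The summed level of 17 S phase markers was 347 to 895 CPM in treated and 725 to 1059 CPM in untreated wild-type libraries, and 792 to 835 CPM in treated and 505 to 628 CPM in untreated p53-null ones. The 14 G2 and mitosis markers summed to 353 to 898 CPM in treated and 544 to 1148 CPM in untreated wild-type libraries. Their p53-null sums were 671 to 870 CPM in treated and 694 to 928 CPM in untreated libraries. Macrophage markers (13 genes) summed to 46.0, 217 and 238 CPM in treated wild-type libraries, against 98.3, 483 and 517 CPM in untreated ones, and to 81.9 to 123 CPM in the p53-null libraries. The part of dividing and of other cells in the repair gene results was not tested, and in bulk RNA fewer cells of a type and less RNA per cell cannot be told apart.

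In p53-null cells 0 of the 47 repair genes were called with doxorubicin, beside 0% of all genes. Unadjusted, 6 of them had a p under 0.05, all higher, beside 5.32% of all genes higher and 5.9% lower, and limma-voom and the replicate block called 0 of the 47. The 6 genes had log2 folds of 0.97 for Rad54l, a recombination translocase gene, 0.86 for Mutyh, 0.85 for Xrcc3, a homologous recombination gene, and 0.73 for Polb, the gap-filling polymerase gene of base excision repair. The remaining genes were Xrcc5, encoding the KU80 subunit of the end-binding KU dimer, at 0.63, and Lig1, encoding the ligase that joins Okazaki fragments, at 0.56. The 47 log2 folds ran over -0.84 to 0.97 with a median of 0.05, beside -0.07 over all genes. Treated and untreated libraries did not overlap for 20 of the 47, of which 14 were higher with doxorubicin, beside 25.4% of all genes, and 6 lower, beside 28.4%. With 2 libraries a group, a missed threshold does not show that levels stayed the same.

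The test of the difference between genotypes, the p53-null response minus the wild-type response, called 1 repair gene, Mutyh, which was higher, beside 2.34% of all genes (0.447% higher and 1.89% lower). Its difference was 1.66 (SE 0.36, adjusted p = 0.0447) on the log2 scale. Both p53-null numbers were higher with doxorubicin, at log2 ratios of 0.86 and 0.86, and all 3 wild-type numbers lower, at -0.75, -0.95 and -0.71. Mutyh was called under 10 of 22 alternatives and lost its call without any 1 of 8 libraries (all but untreated wild-type library 1 and treated wild-type library 3), with adjusted p up to 0.252 without untreated p53-null library 1. Without untreated wild-type library 1 Polk was called beside it, and without treated wild-type library 3 Polk and Fancc were. Of the calls over all genes 19.2% were higher, against 8.97% with library size alone and 4.73% with upper quartile scaling, and under both of these scalings Mutyh was not called.

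Polk just missed the threshold, with a response lower in p53-null than in wild-type cells by a log2 difference of -1.99 (SE 0.46, adjusted p = 0.053). Its log2 ratios were -0.30 and -1.04 in the p53-null numbers, against 1.01, 1.65 and 1.30 in the wild-type ones. Fancc (log2 difference 1.64, SE 0.42, adjusted p = 0.0713) and Ung (log2 difference 1.56, SE 0.44, adjusted p = 0.0939) had differences of the opposite sign, without a call. For Ercc5 the difference was -1.09 (SE 0.48, adjusted p = 0.231) and for Msh6 -1.50 (SE 0.52, adjusted p = 0.148), so the wild-type rises of these genes were not shown to differ from the p53-null response. With the replicate block 4 repair genes were called, beside 9.63% of all genes (3.31% higher and 6.32% lower), namely Polk at -1.99 (SE 0.31, adjusted p = 0.0136), Mutyh at 1.66 (SE 0.33, adjusted p = 0.0247), Fancc at 1.64 (SE 0.34, adjusted p = 0.0292) and Xrcc5 at 1.09 (SE 0.28, adjusted p = 0.0474). The number is shared by only 2 pairs in p53-null cells, and the Y-linked reads of the second pair differed. The median difference over the 47 was 0.21, beside -0.13 over all genes.

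Without treatment, 14 of the 47 repair genes differed between genotypes, 6 higher and 8 lower in p53-null cells, beside 33.1% of all genes (20.4% higher and 12.8% lower). Higher were Xpa, Rad23b, Msh3, Rad51c, Nbn and Polk, of which Msh3 and Rad51c passed the level minimum through p53-null libraries alone. Lower were Ddb1, Ercc5, Xrcc5, Mutyh, Apex1, Polb, Mgmt and Fancc, of which 3 belong to base excision and single-strand break repair. The median log2 fold was 0.22, beside 0.09 over all genes. The genotypes did not overlap for 18 genes that were higher in p53-null cells, beside 36.1% of all genes, and 12 that were lower, beside 28.8%. The 18 include Brca2, Fanci, Msh3, Rad51c and Xrcc2, which passed the level minimum through p53-null libraries alone. The median includes them too, so both values are in part fixed by the filter.

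**Figure D3:**
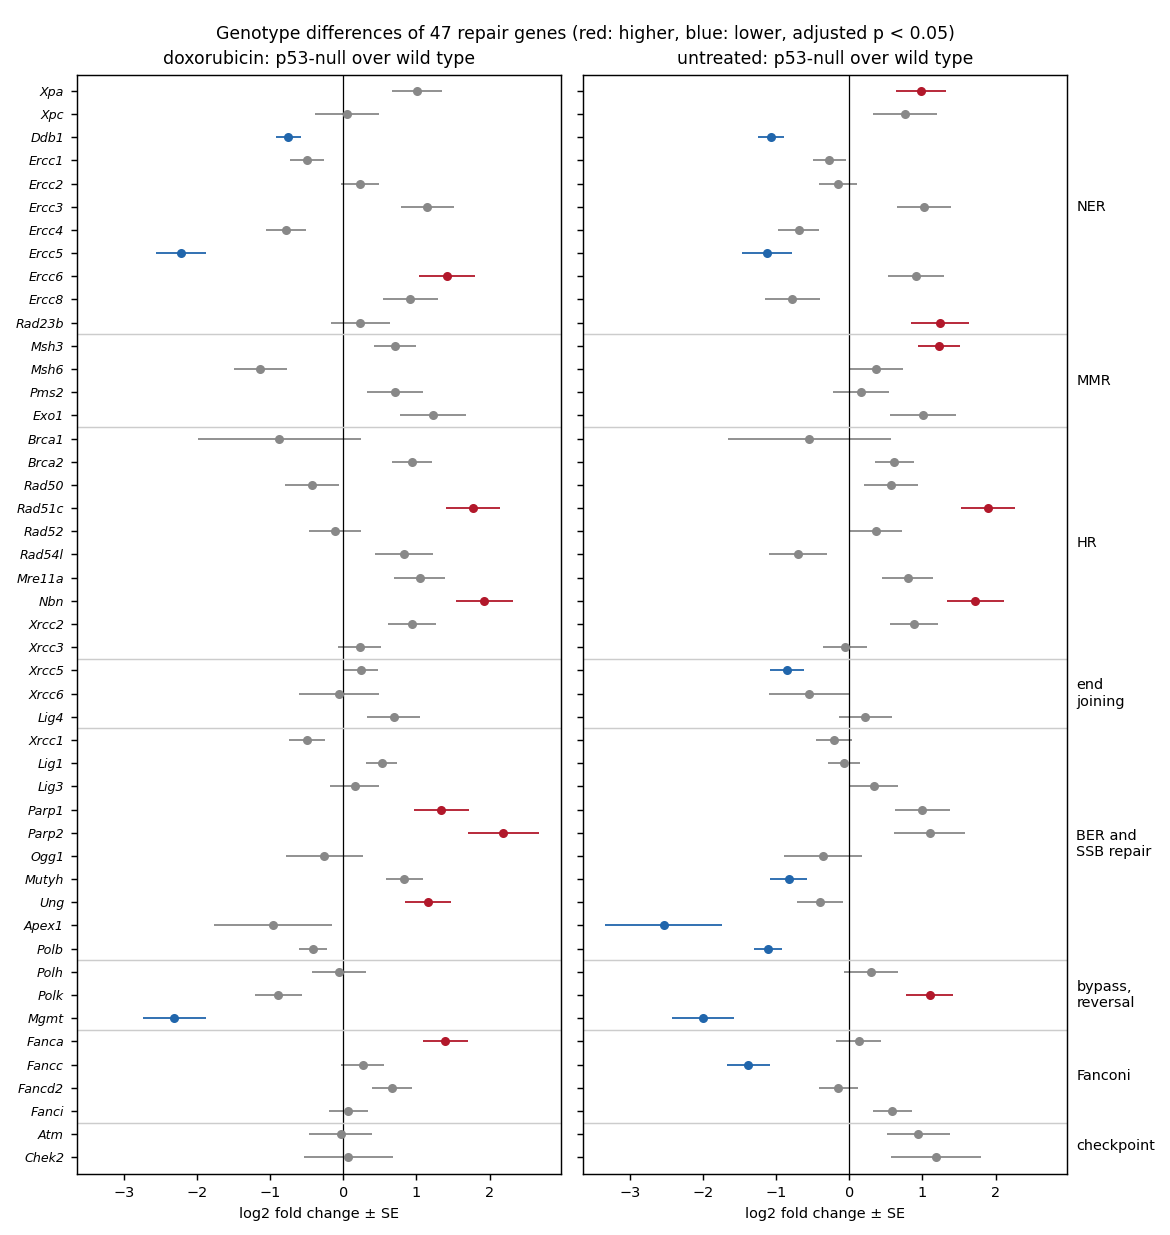
Log2 fold of p53-null over wild-type cells (x axis, point and SE bar) for the 47 tested repair genes (rows, grouped by pathway), treated cells left and untreated cells right. Red and blue points are genes called higher and lower, 7 and 3 in treated cells and 6 and 8 in untreated cells.

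Ddb1 encodes the adaptor that joins damage sensors to the CUL4 ubiquitin ligase. It had 797 and 712 CPM in untreated p53-null libraries, against 1580, 1481 and 1696 CPM in untreated wild-type ones, a log2 fold of -1.07 (SE 0.17, adjusted p = 0.00383). Treated levels were 979 and 872 CPM in p53-null and 1463, 1725 and 1486 CPM in wild-type libraries (log2 fold -0.75, SE 0.17, adjusted p = 0.0207). All p53-null libraries lay below all wild-type ones. Ddb1 was the 1 gene of the 14 still called without untreated p53-null library 1 (adjusted p = 0.043) or 2 (0.0478).

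Mgmt encodes the methyltransferase that strips alkyl groups off guanine. The p53-null levels were 3.45 and 3.05 CPM in treated and 3.26 and 3.29 CPM in untreated libraries, and the wild-type levels 9.62, 27.2 and 22.2 CPM in treated and 10.2, 18.1 and 16.7 CPM in untreated ones. The p53-null libraries lay close together and below every wild-type library. The log2 fold of p53-null over wild type was -2.31 (SE 0.43, adjusted p = 0.00665) with doxorubicin, and without it the p53-null level was 4-fold lower than in wild type (adjusted p = 0.00954). Its response to doxorubicin was -0.01 in p53-null and 0.30 in wild-type cells, neither called.

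Nbn had 20.6 and 32.7 CPM in treated and 29.2 and 40.3 CPM in untreated p53-null libraries, all above the wild-type libraries given above. Its log2 fold of p53-null over wild type was 1.93 (SE 0.39, adjusted p = 0.0102) with doxorubicin and 1.72 (SE 0.39, adjusted p = 0.0109) without. Rad51c, which encodes a homologous recombination protein, had 2.92 and 1.04 CPM in treated and 3.31 and 2.90 CPM in untreated p53-null libraries. The wild-type libraries held 2, 4 and 0 reads (0.187, 0.372 and 0 CPM) with doxorubicin and 5, 4 and 4 reads (0.595, 0.359 and 0.449 CPM) without. Its log2 folds, 1.78 (SE 0.37, adjusted p = 0.0118) in treated and 1.90 (SE 0.37, adjusted p = 0.00701) in untreated cells, depend on the 0.5 CPM added before the log at such levels and follow from a gene that passed the level minimum through p53-null libraries alone. Over the alternatives they ran over 0.83 to 3.31 in treated and 1.05 to 2.63 in untreated cells.

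Polb, the gap-filling polymerase gene, had 32.1 and 30.6 CPM in untreated p53-null libraries and 69.9, 65.5 and 69.7 CPM in untreated wild-type ones (log2 fold -1.11, SE 0.20, adjusted p = 0.00497). With doxorubicin it had 54.0 and 51.1 CPM in p53-null and 65.1, 82.2 and 64.2 CPM in wild-type libraries, and this difference was not called (log2 fold -0.41, SE 0.20, adjusted p = 0.199). Apex1 held 9.13 and 7.49 CPM in treated and 9.31 and 12.0 CPM in untreated p53-null libraries, all below the untreated wild-type libraries. The untreated log2 fold was -2.54 (SE 0.81, adjusted p = 0.0365) and the treated one -0.96 (SE 0.81, adjusted p = 0.472), where treated wild-type library 2 lay below the p53-null libraries. Without that library the treated fold was -1.99 and was called (adjusted p = 0.00356). For Mutyh the untreated fold was -0.83 (SE 0.25, adjusted p = 0.0322) and for Fancc -1.38 (SE 0.30, adjusted p = 0.00955). Xrcc5, encoding KU80, had 13.8 and 13.6 CPM in untreated p53-null libraries and 22.7, 26.8 and 25.7 CPM in untreated wild-type ones (log2 fold -0.85, SE 0.23, adjusted p = 0.0225). With doxorubicin Xrcc5 had 20.5 and 22.6 CPM in p53-null and 14.8, 19.4 and 20.6 CPM in wild-type libraries, which overlapped (log2 fold 0.24, SE 0.23, adjusted p = 0.534).

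Ercc5 was lower in p53-null cells in both states, at 13.3 ± 0.290 CPM (SD, n = 2) in treated p53-null and 67.1 ± 25.0 CPM (SD, n = 3) in treated wild-type cells, a log2 fold of -2.22 (SE 0.34, adjusted p = 0.0022). Untreated means were 7.62 ± 2.70 CPM in p53-null and 16.8 ± 1.06 CPM in wild-type cells (log2 fold -1.13, SE 0.34, adjusted p = 0.0307). Polk was higher in untreated p53-null than in untreated wild-type cells (log2 fold 1.10, SE 0.32, adjusted p = 0.0281), and its treated fold of -0.89 (SE 0.32, adjusted p = 0.104) had the opposite sign without a call.

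Xpa, encoding the scaffold that checks the lesion before incision, had 15.0 and 29.3 CPM in untreated p53-null libraries and 11.4, 11.5 and 8.54 CPM in untreated wild-type ones (log2 fold 0.98, SE 0.34, adjusted p = 0.0481). Its treated levels were 12.6 and 16.3 CPM in p53-null and 8.59, 6.60 and 5.66 CPM in wild-type libraries (log2 fold 1.01, SE 0.34, adjusted p = 0.0833). The groups did not overlap in either state, and the untreated call of Xpa held under 7 of 23 alternatives. Without untreated p53-null library 2 its fold was 0.54 (adjusted p = 0.368). Rad23b, encoding the partner that stabilises XPC, had 38.2 and 34.7 CPM in untreated p53-null and 25.7, 10.6 and 12.6 CPM in untreated wild-type libraries (log2 fold 1.24, SE 0.40, adjusted p = 0.0381). With doxorubicin it had 14.8 and 27.3 CPM in p53-null and 21.6, 14.0 and 16.4 CPM in wild-type libraries, overlapping (log2 fold 0.23, SE 0.40, adjusted p = 0.745). Msh3, whose product recognises larger loops in mismatch repair, had 1.82 and 1.80 CPM in untreated p53-null and 0.476, 0.539 and 0.449 CPM in untreated wild-type libraries (log2 fold 1.23, SE 0.28, adjusted p = 0.0117), and 1.25 and 1.95 CPM against 1.12, 0.744 and 0.514 CPM with doxorubicin (log2 fold 0.71, SE 0.28, adjusted p = 0.133). Every p53-null library of Msh3 stood above every wild-type one, at levels near 1 CPM, and with 1 wild-type library at 1 CPM it passed the level minimum through the p53-null libraries, where it is high.

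With doxorubicin, 10 of the 47 repair genes differed between genotypes, 7 higher and 3 lower in p53-null cells, beside 12.1% of all genes (5.24% higher and 6.83% lower). The lower ones were Ddb1, Ercc5 and Mgmt. The higher ones were Ercc6, Rad51c, Nbn, Parp1, Parp2, Ung and Fanca. Called in the same direction in both states were Ddb1, Ercc5 and Mgmt, lower, and Nbn and Rad51c, higher, Rad51c again through the filter named above. The share of all genes called in both states was not computed. The median log2 fold was 0.23, beside 0.03 over all genes. The genotypes did not overlap for 19 genes that were higher in p53-null cells, beside 21.8% of all genes, and 9 that were lower, beside 20%. The 19 include Brca2, Msh3, Rad51c and Xrcc2, which passed the level minimum through p53-null libraries alone. The median includes them and Fanci. These comparisons share their libraries with the doxorubicin responses above. Of the cell-cycle markers, 4 of 17 S phase and 4 of 14 G2 and mitosis genes were also called higher in treated p53-null than in treated wild-type cells, and their part in the repair gene calls was not tested.

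Parp1 encodes the main poly(ADP-ribose) polymerase that senses DNA breaks. It had 17.4 and 33.4 CPM in treated p53-null libraries, against 10.4, 6.42 and 11.7 CPM in treated wild-type ones, a log2 fold of 1.34 (SE 0.38, adjusted p = 0.0453). Untreated levels were 21.3 and 36.9 CPM in p53-null and 15.9, 14.0 and 11.7 CPM in wild-type libraries (log2 fold 1.00, SE 0.38, adjusted p = 0.0651), and all p53-null libraries stood above all wild-type ones. For Parp2 the treated fold was 2.19 (SE 0.48, adjusted p = 0.0157) and the untreated one 1.10 (SE 0.48, adjusted p = 0.102). Ung stood at 5.58 ± 1.76 CPM (SD, n = 2) in treated p53-null and 2.18 ± 0.217 CPM (SD, n = 3) in treated wild-type cells (log2 fold 1.16, SE 0.31, adjusted p = 0.039).

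Fanca had 9.13 and 13.2 CPM in treated and 6.43 and 9.27 CPM in untreated p53-null libraries, with a treated log2 fold over wild type of 1.40 (SE 0.31, adjusted p = 0.0157) and an untreated one of 0.13 (SE 0.31, adjusted p = 0.762). Zfp276 overlaps the 3' end of Fanca and had a treated fold of 0.33 (SE 0.44, adjusted p = 0.665). Ercc6 had 3.49 and 5.97 CPM in treated and 5.28 and 6.50 CPM in untreated p53-null libraries, and its folds over wild type were 1.42 (SE 0.39, adjusted p = 0.0389) treated and 0.91 (SE 0.39, adjusted p = 0.0908) untreated. The treated wild-type libraries of both genes were the lowest group.

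**Figure D4:**
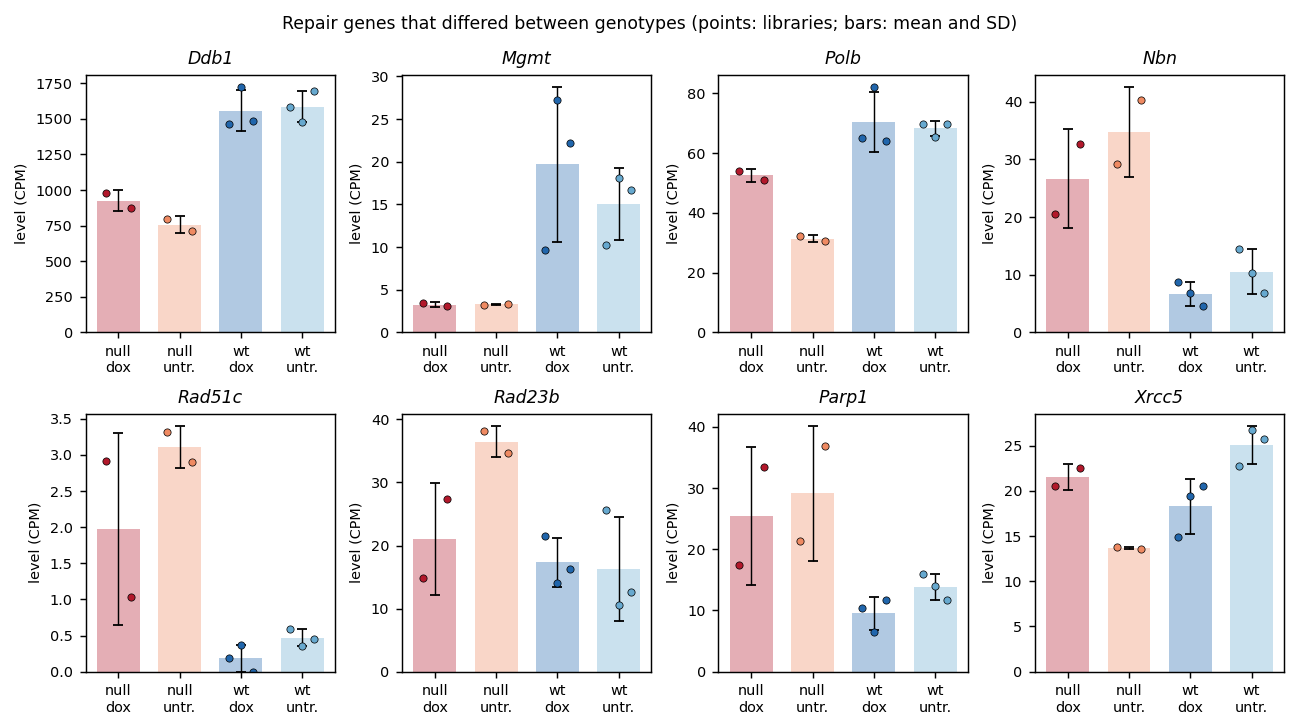
Level in CPM (y axis) of 8 repair genes in treated p53-null, untreated p53-null, treated wild-type and untreated wild-type cells (x axis). Points are libraries, bars are means and error bars are SD. Ddb1 and Mgmt stand lower, and Nbn, Rad51c and Parp1 higher, in every p53-null library.

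Single libraries and the scaling weighed on these counts. Without treated p53-null library 2, 3 genes were called between treated genotypes, namely Ercc5 and Rad51c (adjusted p = 0.0405 and 0.00781) and Msh6, which was lower in p53-null cells and is not among the 10 (adjusted p = 0.0345). Without treated p53-null library 1, Ddb1, Ercc6, Rad51c and Ung lost their calls. Parp1 lost its call without any 1 of 8 libraries, the exceptions being treated p53-null library 1 and treated wild-type library 3. Ung lost its call without any 1 of 9, the exception being untreated wild-type library 1. Between untreated genotypes 1 call of the 14, Ddb1, was left without untreated p53-null library 1 or 2. Without untreated wild-type library 2 or 3, Apex1, Ercc5, Mutyh, Polk, Rad23b, Xpa and Xrcc5 lost their calls. Scaling by library size alone shifted the median log2 fold of all genes to 0.29 in treated and 0.43 in untreated cells. The median of the 47 repair genes was then 0.53 in treated and 0.55 in untreated cells. Of all treated calls 68.6% were then higher, beside 43.4% as reported. Of all untreated calls 86.6% were then higher, beside 61.5% as reported and 73.3% with upper quartile scaling.

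Of the checkpoint kinases and the nucleotide supply gene, Atr, Chek1 and Rrm2b were too low to test. Atm, encoding the kinase that answers double-strand breaks, had 1.67 and 2.86 CPM in treated and 2.50 and 3.34 CPM in untreated p53-null libraries, against 2.33, 1.86 and 2.67 CPM in treated and 2.74, 0.808 and 0.786 CPM in untreated wild-type ones. Its response was -0.33 (SE 0.47, adjusted p = 0.824) in p53-null and 0.65 (SE 0.39, adjusted p = 0.308) in wild-type cells, with overlapping groups in both. Atr, encoding the kinase that answers stalled forks, had 14 and 10 reads in treated and 8 and 17 in untreated p53-null libraries, and 4, 5 and 3 in treated and 3, 8 and 4 in untreated wild-type ones. The depth-scaled ratio of treated to untreated wild type was 0.73, with an exact 95% counting interval of 0.312 to 1.67. Intervals of this kind cover counting error only, and copies of 1 molecule are counted as separate reads.

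Chek1, encoding the kinase downstream of ATR, had 12 and 18 reads in treated and 10 and 22 in untreated p53-null libraries, against 3, 5 and 4 in treated and 2, 2 and 1 in untreated wild-type ones. The depth-scaled ratio of treated to untreated was 2.19 in wild type (95% counting interval 0.718 to 7.93), and that of untreated p53-null to untreated wild type was 4.17 (1.61 to 13.7). Rrm2b, a p53 target that encodes the ribonucleotide reductase subunit used outside S phase, had 8 and 16 reads in treated and 13 and 9 in untreated p53-null libraries. The treated wild-type libraries held 6, 3 and 4 reads, against 0, 0 and 1 in the untreated ones. That is 13 reads over the treated and 1 over the untreated wild-type libraries, a depth-scaled ratio of 11.9 (95% counting interval 1.78 to 504). The p53-null ratio of treated to untreated was 0.817 (0.439 to 1.53), and that of untreated p53-null to untreated wild type was 14.3 (2.32 to 592).

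Ddb2, encoding the sensor of ultraviolet lesions that p53 raises in human cells, had 6 and 3 reads in treated and 2 and 3 in untreated p53-null libraries, against 3, 2 and 0 in treated and 2, 4 and 1 in untreated wild-type ones. No difference was detectable at this depth, with a wild-type ratio of 0.651 (95% counting interval 0.163 to 2.38). Prkdc, encoding the catalytic subunit of the DNA-dependent kinase of end joining, had 16 and 17 reads in treated and 14 and 22 in untreated p53-null libraries, and 3, 4 and 3 in treated and 0, 8 and 0 in untreated wild-type ones. All 8 reads of the untreated wild-type group lay in library 2. The ratio of treated to untreated wild type was 1.14 (0.405 to 3.32), and that of untreated p53-null to untreated wild type 2.93 (1.34 to 7.31). Xrcc4, encoding the partner of ligase IV, held 13 reads over the treated and 19 over the untreated p53-null libraries and 4 in each wild-type group, a wild-type ratio of 0.912 (0.17 to 4.9). Its ratio of untreated p53-null to untreated wild type was 3.1 (1.03 to 12.5).

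Xpc, encoding the sensor that opens global nucleotide excision repair, had 2.16 and 4.81 CPM in treated and 3.07 and 5.23 CPM in untreated p53-null libraries, against 3.83, 3.07 and 2.57 CPM in treated and 3.45, 2.25 and 1.24 CPM in untreated wild-type ones. The wild-type groups overlapped, with a log2 fold of 0.44 (SE 0.39, adjusted p = 0.506), while within numbers 1, 2 and 3 the log2 ratios were 0.13, 0.38 and 0.82. Polh, encoding the polymerase that copies past thymine dimers, had 0.455 and 0.472 CPM in treated and 0.864 and 1.05 CPM in untreated p53-null libraries, against 0.374, 0.372 and 0.823 CPM in treated and 0.238, 0.719 and 1.35 CPM in untreated wild-type ones. Its responses were -0.60 (SE 0.41, adjusted p = 0.604) in p53-null and -0.24 (SE 0.33, adjusted p = 0.684) in wild-type cells. Brca2, whose product acts at resected ends in homologous recombination, had 1.33 and 1.67 CPM in treated and 1.34 and 2.02 CPM in untreated p53-null libraries, against 0.374, 0.558 and 0.720 CPM in treated and 0.952, 0.988 and 0.786 CPM in untreated wild-type ones. All p53-null libraries stood above 1 CPM and all wild-type ones below it, so Brca2 was tested through the group where it is high, and no weight is put on its treated genotype fold of 0.94 (SE 0.27, adjusted p = 0.0505).

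Some genes stood apart in 1 replicate number of the wild-type cells. Brca1, encoding a ubiquitin ligase of homologous recombination, had 0.758 and 1.98 CPM in treated and 1.78 and 2.02 CPM in untreated p53-null libraries. The wild-type libraries 1, 2 and 3 held 0.934, 0.744 and 18.6 CPM with doxorubicin and 1.67, 1.35 and 10.2 CPM without, so both libraries numbered 3 stood far above all others. Its wild-type log2 fold was -0.11 (SE 0.99, adjusted p = 0.958), with the widest error of the 47 genes, and -0.11 (SE 0.34, adjusted p = 0.836) with the replicate block. Chek2, encoding the kinase downstream of ATM, had 3.08, 2.33 and 15.0 CPM in treated and 2.14, 1.62 and 1.69 CPM in untreated wild-type libraries, high in treated library 3. It had 6.29 and 4.21 CPM in treated and 5.14 and 4.39 CPM in untreated p53-null libraries, and its wild-type fold was 1.23 (SE 0.55, adjusted p = 0.182).

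**Figure D5:**
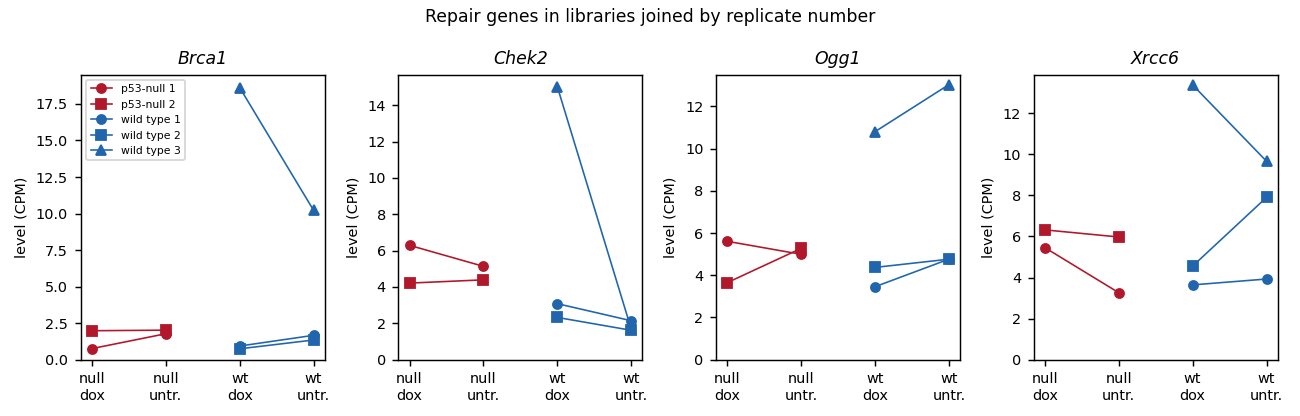
Level in CPM (y axis) of Brca1, Chek2, Ogg1 and Xrcc6 in treated p53-null, untreated p53-null, treated wild-type and untreated wild-type libraries (x axis), with lines joining libraries of 1 replicate number. Wild-type number 3 (triangles) stands highest in both states for Brca1, Ogg1 and Xrcc6, and in the treated state for Chek2.

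Both remaining genes of this plot were also highest in number 3. Ogg1, encoding the glycosylase for oxidised guanine, had 3.46, 4.37 and 10.8 CPM in treated and 4.76, 4.76 and 13.0 CPM in untreated wild-type libraries. Xrcc6, encoding the KU70 subunit, had 3.64, 4.56 and 13.4 CPM in treated and 3.93, 7.91 and 9.66 CPM in untreated wild-type ones. Pms2, encoding the mismatch repair endonuclease subunit, stood highest in number 1 instead, at 38.8, 23.1 and 23.7 CPM in treated and 54.6, 23.1 and 22.8 CPM in untreated wild-type libraries. Without both wild-type libraries numbered 3, a setting chosen after these values were seen, Msh6, Mutyh, Parp2 and Ung lost their calls in the wild-type response. Mutyh lost its call in the difference of responses. Between treated genotypes Ddb1, Ercc6, Fanca, Parp1 and Ung lost theirs, and between untreated ones Apex1, Ercc5, Mutyh, Polk, Rad23b, Xpa and Xrcc5 did.

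Of the 27 genes called in no comparison, those of nucleotide excision repair not yet described were Ercc1 and Ercc4, encoding the nuclease that cuts 5' of the lesion, Ercc2 and Ercc3, encoding the TFIIH helicases, and Ercc8, encoding CSA. Their wild-type log2 folds ran over -0.79 for Ercc8 to 0.41 for Ercc1. The difference of responses of Ercc8 was 1.69 (SE 0.53, adjusted p = 0.121). In recombination, Rad52, Rad54l, Mre11a, Xrcc2 and Xrcc3 had wild-type folds of -0.56 for Rad54l to 0.57 for Xrcc3. Exo1, the mismatch repair exonuclease gene, had -0.17, Lig4, the end joining ligase gene, -0.04, and Lig1 and Lig3, further ligase genes, -0.04 and -0.37. Fancd2 and Fanci, encoding the pair that the Fanconi core ubiquitinates, had -0.68 (SE 0.24, adjusted p = 0.102) and 0.20 (SE 0.24, adjusted p = 0.627). The 3' ends of Ercc1, Ercc2, Pms2, Rad54l, Xrcc3, Lig3, Ogg1, Fanci and Atr also overlap a gene on the other strand in the annotation, so reads of the partner cannot be told apart from theirs without the counting strand.

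Another 101 genes of the same pathways, listed beside the 53, were read the same way, and 83 were tested. In treated wild type 4 were higher and 2 lower, which is 7.2% called, beside 12.6% of all genes. Sesn2, encoding a sestrin that p53 raises under stress, had 25.6, 12.9 and 21.3 CPM in treated and 2.98, 4.58 and 3.03 CPM in untreated wild-type libraries (log2 fold 2.31, SE 0.36, adjusted p = 0.00297), and 1.90 and 4.25 CPM in treated and 4.37 and 5.67 CPM in untreated p53-null ones. Its response was lower in p53-null cells by a difference of -3.01 (SE 0.57, adjusted p = 0.0274), the 1 call of the 83 in that test. Ppm1d, encoding the phosphatase WIP1 that turns off the checkpoint, rose in wild type at 1.54 (SE 0.28, adjusted p = 0.00665). Rrm2, encoding the S phase subunit of ribonucleotide reductase, rose at 1.35 (SE 0.38, adjusted p = 0.0439), and Mpg, encoding the alkyladenine glycosylase, at 0.62 (SE 0.17, adjusted p = 0.0374). Among the lower was H2afx, encoding the histone H2AX that marks breaks (log2 fold -1.01, SE 0.24, adjusted p = 0.021).

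Between genotypes, 9 of the 83 were higher and 3 lower in treated p53-null cells, and 20 higher and 4 lower in untreated ones. That is 14.5% called in treated cells, beside 12.1% of all genes, and 28.9% in untreated cells, beside 33.1%. Bard1, encoding the partner of BRCA1, had 12.0 and 11.2 CPM in treated and 14.2 and 10.1 CPM in untreated p53-null libraries, against 0.187, 0.279 and 0.412 CPM in treated and 0.357, 0.270 and 1.12 CPM in untreated wild-type ones. No p53-null library overlapped a wild-type one, and no wild-type library reached the level minimum, which was applied before scaling. The log2 fold was 3.94 (SE 0.36, adjusted p = 8.03e-05) in treated and 3.61 (SE 0.36, adjusted p = 0.000331) in untreated cells. Rpa3, Blm, Tdg, Usp1 and Clspn were also higher and Mpg lower in p53-null cells in both states. Among those higher in untreated p53-null cells were Gtf2h2, Mnat1, Ttrap, Mbd4, Ube2b, Polq, Fancm, Topbp1, Mdc1, Wee1, Cdc25a, Rrm1 and Rrm2, and lower were Gtf2h5, Nhej1 and Fance. Bard1, Gtf2h2, Ttrap, Polq, Mbd4 and Wee1 had 0 or 1 wild-type library at 1 CPM before scaling. They passed the level minimum through the p53-null libraries, the group in which they were called higher. In treated cells Eme1, Apex2 and H2afx were higher, and Ppm1d and Sesn2 lower, in p53-null cells.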

How the data were processed

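The authors deposited, for each of 10 RNA libraries, variance-stabilised values on a log2-like scale for 20207 gene symbols, and the submitters' processing notes name DESeq and the mouse build mm9. Aligner, annotation and counting strand: not given in the sources used here. Each value stood for 1 whole read number in its library, so reads were recovered from the steps between values, starting from an unbroken run of 60 reads. Of 24022 distinct values, 99.93% came out within 0.01 of a whole read. The fits ran on log2 of CPM plus 0.5, from these reads, scaled by the trimmed mean of M values (30% and 5% trimmed) over genes at 1 CPM or more in at least 2 libraries. limma-trend (limma 3.58.1, R 4.3.3) fitted all 4 groups together, with Benjamini-Hochberg adjustment over 11177 genes. The scripts also used Python 3.11.15, and the fit was tested on simulated data.

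Full values are given for each repair gene called in at least 1 comparison and for Ddb2, Xpc, Polk, Polh, Rrm2b, Mgmt, Atm, Atr, Chek1, Chek2, Brca1, Brca2, Prkdc and Parp1. The genes, lists and this rule were chosen with earlier results of these data known. Deviations from group means of same-numbered treated and untreated wild-type libraries correlated at 0.581, 0.342 and 0.611 over genes, so the numbers were taken to pair wild-type libraries. Other numbers gave -0.504 to -0.018, but deviations cancel within a group, so these negative values follow in part from the positive ones. The p53-null value was 0.385 over only 2 pairs. Library totals over the genes listed were 9768160 to 25970157 reads. Peak positions on mm9 were not used here, and some genes counted among the other repair genes are not reported here by name.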

Additional observations from a re-analysis of the deposited data

Results flagged for a closer look

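Mutyh, the glycosylase gene for adenine paired with oxidised guanine, differed between genotypes in its response to doxorubicin by 1.66 on the log2 scale (SE 0.36, adjusted p = 0.0447, limma-trend). It was higher with doxorubicin in both p53-null numbers, at a log2 ratio of 0.86 in each, and lower in all 3 wild-type numbers, at -0.75, -0.95 and -0.71. The adjusted p ran over 0.0247 to 0.303 across 22 alternatives. Of 47 repair genes tested for this difference, it was the 1 called.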

How the results depend on the processing

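No called value changed direction under the alternatives run. A replicate block gave calls for 2600 genes and 13 repair genes in the wild-type response, against 1406 and 7 without it, and 1076 and 4 in the difference of responses, against 261 and 1. Nothing in the labels ties a number across genotypes. With the number as a block shared by them, Polk gained a call between treated genotypes (-1.06, adjusted p = 0.0214), and Ercc6, Parp1 and Ung lost theirs (adjusted p = 0.0645, 0.054 and 0.0525). Between untreated genotypes Mutyh, Rad23b and Xpa lost theirs (adjusted p = 0.0515, 0.0543 and 0.0693). The block changed no other count by over 1.5 times. With only the groups compared in the fit, the wild-type response gave 729 genes and 4 repair genes, and treated genotypes 646 and 4, against 1349 and 10. The p53-null response gave 2 genes with no filter on low levels. The difference of responses gave 169 genes and 0 repair genes with upper quartile scaling, and Polk was called beside Mutyh with limma-voom or with 2 CPM added. Library size alone gave 17 repair genes between treated genotypes, where it also raised the median log2 fold of all genes from 0.03 to 0.29. The count of all genes called under that setting is not given here, so the 17 cannot be set beside it.

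Without both p53-null libraries numbered 2, the counts of genes and of repair genes were 779 and 4 in the wild-type response, 0 and 0 in the difference, 304 and 1 between treated and 216 and 1 between untreated genotypes. Without both wild-type libraries numbered 3, chosen after seeing the data, they were 629 and 3 in the wild-type response and 117 and 0 in the difference. Between genotypes that setting gave 6 repair genes in treated and 8 in untreated cells, and the counts of all genes beside them are not given here. Leaving out 1 library at a time gave 712 to 1459 genes and 2 to 7 repair genes in the wild-type response, and 0 to 1 and 0 to 0 in the p53-null response. The same gave 38 to 320 genes and 0 to 3 repair genes in the difference, 467 to 1493 and 3 to 11 between treated genotypes, and 422 to 4226 and 1 to 16 between untreated ones. The cause of these shifts was not tested, beyond the smaller number of samples where libraries were left out. Of the calls, 19.2% were higher in the difference of responses, against 8.97% with library size alone and 4.73% with upper quartile scaling. Wild-type libraries held fewer reads than p53-null ones, which limits the genes near 1 CPM most.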
